A study of Homo sapiens with 12 samples.

Results

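The genes described here encode the proteasome: every protein-coding symbol of the form PSM, a letter from A to G and a number. This rule found 48 genes among the 61487 identifiers of the count table, and it used no expression value. Within them, 5 genes of the immunoproteasome (PSMB8, PSMB9, PSMB10, PSME1 and PSME2) were set against the constitutive subunits. The cells were MOLM14, an established human acute myeloid leukaemia line of monocytic character, carrying a doxycycline-inducible short hairpin RNA against RIP140, the retinoic acid receptor coregulator encoded by NRIP1. Total RNA was sequenced in 4 groups of 3 biological replicates: untreated cells, cells given all-trans retinoic acid (ATRA) at 1 µM for 48 h, cells given doxycycline (DOX) at 50 ng/mL and renewed every other day, and cells given both (the combined group). Every library, untreated ones included, carries the hairpin construct in the same cell line, so doxycycline itself and the loss of RIP140 cannot be told apart.

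The proteasome is a barrel of stacked alpha and beta rings capped by a regulatory particle that binds, unfolds and feeds in ubiquitin-tagged proteins. In the constitutive core the cutting is done by PSMB5, PSMB6 and PSMB7. Interferon-exposed and immune cells replace these with PSMB8, PSMB9 and PSMB10, and the resulting immunoproteasome, often capped by the PSME1 and PSME2 activator ring (PA28 alpha and beta), makes peptides suited to display on class I molecules by way of the TAP transporter.

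Expression was measured as whole-number read counts per gene. The smallest library, the third DOX one, held 2685984 counts and the largest, the second DOX one, 19358619, a ratio of 7.21. Levels below are counts per 1e6 counts of the library (CPM), scaled by TMM, and changes are log2 changes with their standard error from edgeR's quasi-likelihood test, with p-values adjusted by Benjamini-Hochberg over all 16104 genes tested and called at 0.05. NRIP1, the hairpin's target, stood at 53.3 to 59.7 CPM in untreated libraries, 38.4 to 51.9 with ATRA, 15.0 to 19.2 with DOX and 15.9 to 20.9 with both; each DOX-treated library was below each library without DOX, and the fall with ATRA alone, by 0.39 on the log2 scale, was called as well. Of 12 leukaemia cell markers, CD33, PTPRC, SPI1, FLT3 and CEBPA were among those measured. CD14 stayed under 1 CPM in every library, and CD68 had group means of 0.44 to 0.99 CPM. Of the 10 of these markers that were tested, 8 had a positive log2 change with ATRA and 2 a negative one. The mean of MPO went from 153 CPM untreated to 89.9 with ATRA, and that of LYZ from 205 to 124. Of 16 markers of other cells, CD3E, PF4, PPBP and EPCAM were among those with no count in any library, and 11 in all stayed under 1 CPM. The summed level of these 16 was 130 to 143 CPM in untreated libraries, 203 to 217 with ATRA, 183 to 201 with DOX and 247 to 296 with both, with PECAM1, a surface protein that monocytic cells also carry, at 62.9 to 223 CPM. The mean of PECAM1 went from 65.5 CPM untreated to 157.7 with ATRA, while KRT18 went from 30.5 to 20.8, KRT8 from 18.3 to 14.9 and NKG7 from 19.1 to 14.3; with DOX these 3 stood at 40.8, 23.2 and 20.9. The part of these markers in the results below was not tested.

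The testis-restricted PSMA8 and the thymus-restricted PSMB11 had no count in any of the 12 libraries, which allows a level of up to 0.0203 CPM (3 counts of 147515698, counting error only). The other 46 passed the filter on low counts and were tested. PSMA2 was barely counted, with 0 to 43 reads per library, and PSMD9 stayed between 3.96 and 7.48 CPM. In PSMA1, PSMA2, PSMA6, PSMB10 and PSMD9, 43.8% to 81.0% of the principal transcript lies in exons shared with a second same-strand gene in GENCODE. The levels of these genes may thus be understated. The strand setting of the counts is not given, so exons shared with opposite-strand genes may lower other levels too. Such exons cover 82.1% of the principal transcript of PSMC1, 50.4% of PSMD7 and 27.2% of PSMC5, the largest shares. Changes between groups rest on the same counting in every library.

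The 5 immunoproteasome genes rose together under ATRA, and no constitutive catalytic subunit did. PSMB9 gained most, 2.51-fold, followed by PSMB10 at 2.13-fold, PSME2 at 1.93-fold, PSME1 at 1.38-fold and PSMB8 at 1.27-fold. In bulk RNA, a change in every cell and a change in the share of cells that express a gene cannot be told apart. Against untreated cells, ATRA was called higher for 10 of the 46 members and lower for 0 in edgeR (2 were lower at an unadjusted p under 0.05, and DESeq2 also called 10 and 0). Across all genes tested, 15.7% were called higher and 13.2% lower. All 5 immunoproteasome genes were among the 10, against 5 of the 41 other members. Their median log2 change was 0.95, that of the 41 others was 0.08, and that of all genes tested was -0.01.

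PSMB9, the interferon-inducible counterpart of PSMB6, measured 35.4, 31.1 and 30.4 CPM in the untreated libraries, 85.2, 84.6 and 72.1 with ATRA, 51.3, 49.7 and 53.0 with DOX and 107, 100.2 and 124 with both. The 4 groups did not overlap at all, in the order untreated, DOX, ATRA and combined. Its log2 change was 1.33 ± 0.10 with ATRA (edgeR adjusted p = 1.0e-09) and 0.66 ± 0.10 with DOX (edgeR adjusted p = 0.00077). Adding DOX to ATRA raised it by a further 0.45 ± 0.09 (edgeR adjusted p = 0.0062), a call that was lost without the third ATRA library or without the third combined library.

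PSMB10, the counterpart of PSMB7, lay at 30.0, 30.3 and 26.0 CPM untreated, 58.8, 60.1 and 64.4 with ATRA, 39.9, 48.0 and 47.6 with DOX, and 74.4, 67.4 and 84.2 with both. Again no group overlapped another and the order was the same as for PSMB9. The log2 change was 1.09 ± 0.10 with ATRA (edgeR adjusted p = 4.6e-08) and 0.65 ± 0.11 with DOX (edgeR adjusted p = 0.0011), while the difference between combined and ATRA, 0.30 ± 0.10, missed the threshold (edgeR adjusted p = 0.091).

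PSMB8, the counterpart of PSMB5, was the most abundant of the 3 per length before treatment and had the smallest log2 changes against untreated cells. It measured 133, 136 and 135 CPM untreated, 187, 171 and 155 with ATRA, 169, 188 and 196 with DOX, and 202, 202 and 219.7 with both. ATRA and DOX libraries overlapped each other, and both lay above every untreated library. The log2 change was 0.34 ± 0.08 with ATRA (edgeR adjusted p = 0.0039) and 0.45 ± 0.09 with DOX (edgeR adjusted p = 0.0031); with every library thinned to the smallest total the ATRA change was no longer called.

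Both PA28 subunits were called higher with each agent. PSME2 measured 91.0, 83.2 and 85.5 CPM untreated, 179, 172 and 149.9 with ATRA, 107, 128 and 131 with DOX, and 186, 192 and 198 with both, so that no untreated library reached any other group. Its log2 change with ATRA was 0.95 ± 0.09 (edgeR adjusted p = 4.4e-08) and with DOX 0.49 ± 0.09 (edgeR adjusted p = 0.0027). PSME1, its partner in the ring, measured 113, 122 and 111 CPM untreated, 159, 169 and 152 with ATRA, 131, 157 and 144 with DOX, and 186, 191 and 197 with both. The DOX and ATRA libraries of PSME1 overlapped. Its change was 0.47 ± 0.08 with ATRA (edgeR adjusted p = 0.00017) and 0.32 ± 0.08 with DOX (edgeR adjusted p = 0.016), and the call with DOX was lost without the third untreated or the second DOX library.

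**Figure D1:**
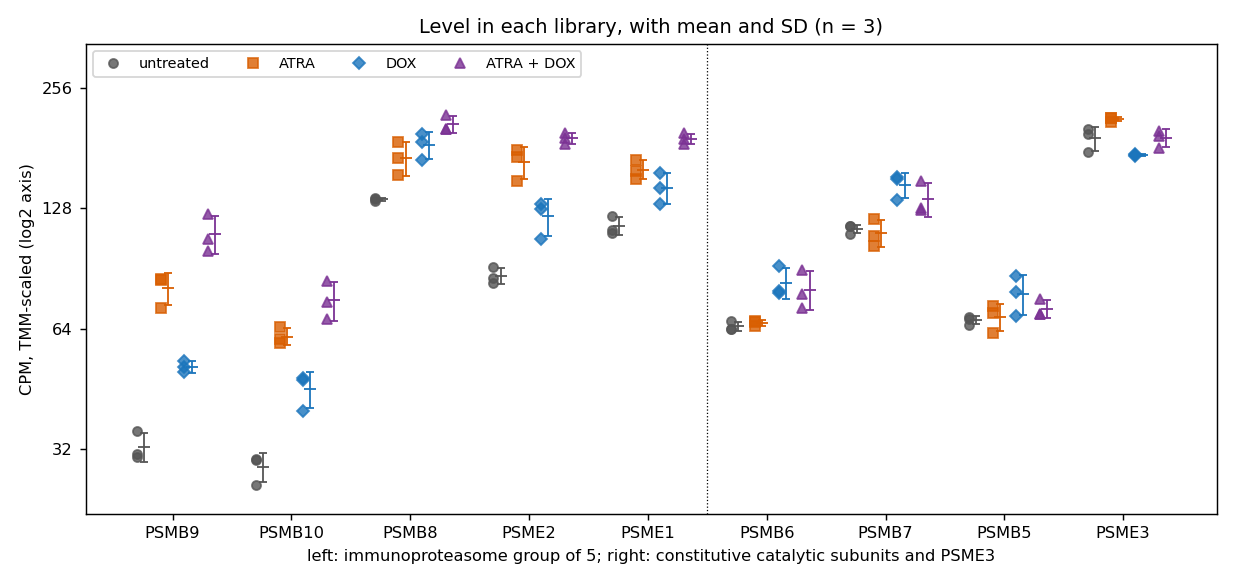
Level of 9 members in every library (TMM-scaled CPM on a log2 axis), with 1 point per library and the group mean ± SD (n = 3) beside it. Left of the dotted line, the untreated libraries of the 5 immunoproteasome genes lie below all treated libraries; right of it, the untreated and ATRA libraries of PSMB6, PSMB7 and PSMB5 overlap, and those of PSME3 lie above the untreated ones with ATRA and below them with DOX.

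The constitutive catalytic subunits gave another picture. PSMB6 measured 63.9, 66.8 and 63.8 CPM untreated and 66.9, 66.3 and 65.0 with ATRA, a log2 change of 0.03 ± 0.09. PSMB7 measured 115, 111 and 115 CPM untreated and 120.2, 109 and 103 with ATRA, a change of -0.04 ± 0.09. For PSMB5 the values were 67.7, 68.6 and 65.4 CPM untreated and 72.9, 70.02 and 62.5 with ATRA, a change of 0.03 ± 0.09. In all 3 the ATRA libraries overlapped the untreated ones, and none of the changes passed the test. With DOX the same genes were higher: PSMB6 by 0.34 ± 0.09 (78.6, 79.4 and 91.8 CPM; edgeR adjusted p = 0.016) and PSMB7 by 0.36 ± 0.09 (134, 153 and 151 CPM; edgeR adjusted p = 0.012), with every DOX library above every untreated one. PSMB5 had 68.9, 86.5 and 79.1 CPM with DOX and did not pass (0.22 ± 0.09, edgeR adjusted p = 0.11).

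PSME3, which forms PA28 gamma, the nuclear relative of PSME1 and PSME2, did not follow them. It stood at 202, 196 and 177 CPM untreated, 216, 215 and 211 with ATRA, 173, 175 and 174 with DOX, and 181, 200.1 and 195 with both. All ATRA libraries were above and all DOX libraries below every untreated one, but neither change passed the test (0.16 ± 0.08 and -0.14 ± 0.08). PSME4, which encodes the PA200 activator, and PSMF1, which encodes the inhibitor PI31, were not called in any comparison either.

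Because 2 genes counted in the same library share its depth, the exchange of catalytic subunits was also followed as a ratio within each library, with counts divided by the length of the principal transcript. PSMB9 stood at 0.603, 0.508 and 0.52 of PSMB6 in untreated libraries, 1.39, 1.39 and 1.21 with ATRA, 0.71, 0.682 and 0.629 with DOX and 1.62, 1.40 and 1.5 with both. Per principal transcript length, PSMB9 thus lay below PSMB6 in each library without ATRA and above it in each library with ATRA. On which side of 1 a ratio falls depends on that choice of length. The principal transcripts have 782 bases (PSMB9) and 852 (PSMB6), whereas all annotated exons of each gene span 3072 and 1448. The fold change of the ratio between groups is the same with either length. The PSMB10 to PSMB7 ratio was 0.204 ± 0.02 (SD, n = 3) untreated, 0.446 ± 0.0545 with ATRA, 0.249 ± 0.0077 with DOX and 0.449 ± 0.0195 with both, so PSMB10 was the less abundant of this pair in each group, on a level that its shared exons may understate. PSMB8 exceeded PSMB5 in every library, with a ratio of 2.31 ± 0.0583 untreated, 2.87 ± 0.077 with ATRA, 2.73 ± 0.197 with DOX and 3.34 ± 0.0087 with both.

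ATRA raised all 3 ratios whether or not DOX was present. Averaged over both DOX states the log2 shift was 1.23 for PSMB9 to PSMB6 (2.34-fold), 0.99 for PSMB10 to PSMB7 (1.99-fold) and 0.31 for PSMB8 to PSMB5 (1.24-fold). Each had p = 0.005 in a two-sided exact permutation test that exchanged ATRA labels within a DOX state, the smallest value its 400 arrangements can give, and 0.006 after adjustment over the 6 ratio tests. DOX, averaged over both ATRA states, raised the PSMB9 to PSMB6 ratio by 0.25 and the PSMB8 to PSMB5 ratio by 0.23 (exact permutation p = 0.005 for each, adjusted 0.006). The PSMB10 to PSMB7 ratio shifted by 0.15 with DOX and did not pass (exact permutation p = 0.09). Its shift was 0.29 without ATRA and 0.01 with it. In both ATRA states, every library with DOX had a lower share of counts on mitochondrial ribosomal RNA than every library without it. The part of that share in the ratio shifts was not tested.

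**Figure D2:**
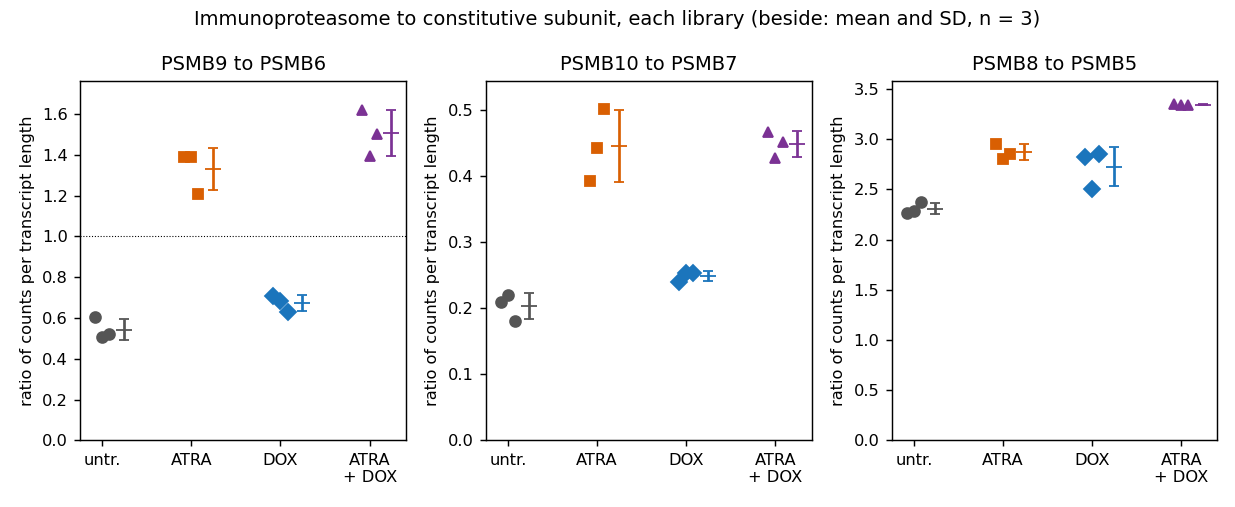
Ratio of each immunoproteasome catalytic subunit to its constitutive counterpart in every library (counts per principal transcript length), with 1 point per library and mean ± SD (n = 3) beside them; axes start at 0. PSMB9 to PSMB6 lies under 1 (dotted) in each library without ATRA and above it in each library with ATRA.

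Per length of transcript, PSMB9 ranked 25 among the 48 members in untreated cells and 9 in the combined group, and PSMB10 moved from 34 to 22. In CPM per kilobase, the order of the 6 catalytic subunits in untreated cells was PSMB8 (119.9 ± 1.23, SD, n = 3), PSMB7 (116 ± 2.81), PSMB6 (76.1 ± 1.98), PSMB5 (51.9 ± 1.29), PSMB9 (41.3 ± 3.41) and PSMB10 (23.6 ± 1.96). The spreads of PSMB8 and PSMB7 overlapped. With both agents the order was PSMB8 (185 ± 9.02), PSMB9 (141 ± 15.3), PSMB7 (138 ± 13.2), PSMB6 (94.0 ± 10.5), PSMB10 (61.9 ± 6.94) and PSMB5 (55.3 ± 2.81). The spreads of PSMB9 and PSMB7 overlapped, as did those of PSMB10 and PSMB5.

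Sequence upstream of the 5 genes was read because interferon-inducible genes commonly carry an interferon-stimulated response element (ISRE) there. The search was for GAAA, any 2 bases and GAAA again, or the reverse complement (TTTC, any 2 bases, TTTC), in RefSeq promoter windows of GRCh38.p14, from 250 bases before to 50 after an annotated start. PSMB8, PSMB10, PSME1 and PSME2 each held a match, and PSMB9 held none. Of the 37 other members with a window, PSMA4, PSMB4 and PSMG4 held one; 42 of the 48 members have a window, and PSMB6 and PSMB7 are among those without. Over all 35116 windows the share with a match was 3.57%. All 4 matches had the same 10 letters, GAAAGCGAAA or the reverse complement TTTCGCTTTC, which 0.1% of all windows hold, a count made after the matches were seen. PSMG4, an assembly chaperone, and TAP1, whose start lies 488 bases from that of PSMB9 on the other strand, hold them too. The TAP1 match lies between the TAP1 and PSMB9 starts, upstream of both genes and outside the PSMB9 window. The segments below give each match in capitals with up to 50 bases on either side and at most 20 bases past the start, 5′ to 3′ on the gene's strand.
PSMB8, chr6:32844028-32844101, minus strand, match from -4: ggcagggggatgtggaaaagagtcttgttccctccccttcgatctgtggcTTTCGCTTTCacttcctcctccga
PSMB10, chr16:67936831-67936921, minus strand, match from -21: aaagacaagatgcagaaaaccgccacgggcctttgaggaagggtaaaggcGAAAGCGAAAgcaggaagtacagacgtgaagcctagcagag
PSME1, chr14:24136149-24136213, plus strand, match from 6: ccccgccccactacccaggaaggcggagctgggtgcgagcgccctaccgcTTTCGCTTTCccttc
PSME2, chr14:24146591-24146688, minus strand, match from -28: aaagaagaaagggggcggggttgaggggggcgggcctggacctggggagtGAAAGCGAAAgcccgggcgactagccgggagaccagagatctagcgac
TAP1, chr6:32853773-32853888, minus strand, 2 overlapping matches from -134: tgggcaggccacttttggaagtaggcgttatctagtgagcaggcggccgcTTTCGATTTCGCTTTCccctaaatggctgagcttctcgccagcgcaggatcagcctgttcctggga
PSMG4, chr6:3258864-3258966, plus strand, match from -33: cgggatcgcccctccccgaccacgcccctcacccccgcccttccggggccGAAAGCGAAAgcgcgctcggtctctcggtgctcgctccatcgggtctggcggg

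In these 6 segments the shared letters begin between 28 bases before and 6 after the start in the 4 immunoproteasome genes, at -33 in PSMG4 and further upstream in TAP1. The genes that carry them did not all behave alike: PSMG4 changed by -0.26 ± 0.11 with ATRA and did not pass the test. The core hexamer of retinoid receptor sites, AGGTCA or TGACCT, was in none of the 5 genes' windows, in 11.8% of member windows and in 13.8% of all windows. The core of the antioxidant element (GCNNNGTCA or TGACNNNGC), which the proteasome regulators of the NRF family bind, was in 29.4% of member windows and 13.3% of all windows. By gene, 3 of the 5 (PSMB9, PSME1 and PSME2) and 12 of the 37 others held it. The GAS motif (TTCNNNGAA) was in 15.7% and 7.66% of these windows, with 1 of the 5 genes (PSMB8) and 7 of the 37. The CCAAT box (CCAAT or ATTGG) was in 39.2% and 34.6%, with 1 of the 5 (PSMB9) and 19 of the 37. These matches describe letters only.

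Outside the immunoproteasome, ATRA was called higher for PSMA4 (0.32 ± 0.10) and PSMA5 (0.33 ± 0.09) of the alpha ring, PSMC2 (0.33 ± 0.09) and PSMC4 (0.32 ± 0.10) of the ATPase ring, and PSMD4, a ubiquitin receptor of the regulatory particle (0.36 ± 0.09). PSMD4 measured 217, 219 and 205 CPM untreated and 282, 295 and 247 with ATRA, without overlap. Without the third untreated library only 1 of these 5 calls was left, that of PSMD4, whereas all 5 immunoproteasome calls held. The 4 structural beta subunits, PSMB1 to PSMB4, had changes from 0.00 to 0.16 and none passed. The core assembly chaperones PSMG1 to PSMG4 ran the other way, from -0.26 to -0.03, with none passing.

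DOX without ATRA was called higher for 28 of 46 members and lower for 0 in edgeR (1 was lower at an unadjusted p under 0.05, the barely counted PSMA2; DESeq2 called 28 and 0). Across all genes tested, 8.08% were called higher and 7.10% lower. The 28 held all 5 immunoproteasome genes and 23 of the 41 others: 5 of 7 in the alpha ring, all 4 structural beta subunits, PSMB6 and PSMB7, 3 of 6 ATPases, 7 of 11 other regulatory particle subunits, and the chaperones PSMG1 and PSMG4. None of PSMD5, PSMD9 and PSMD10, which assemble the ATPase base, was called. The median log2 change was 0.49 in the 5, 0.31 in the 41 others and 0.01 over all genes tested. By role, the median change was 0.51 in the alpha ring, 0.43 in the structural beta subunits, 0.28 in the regulatory particle outside the ATPases, 0.25 in the ATPases and -0.06 in the 3 other activators and inhibitor. The structural beta subunits ran from 0.38 to 0.44, with PSMB4, the highest member per length, at 240, 235 and 224 CPM untreated and 269, 326 and 319 with DOX.

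Among alpha subunits the DOX change was 0.54 ± 0.12 in PSMA3, 0.52 ± 0.13 in PSMA1 and 0.51 ± 0.09 in PSMA5. PSMA3 measured 104, 106 and 97.3 CPM untreated and 119.7, 185 and 137 with DOX, the second DOX library standing far above the others. PSMC2, an ATPase that unfolds substrates, rose by 0.50 ± 0.09, from 78.9, 80.7 and 70.2 CPM to 98.8, 116 and 111. In 36 of the 46 members (78.3%) every DOX library exceeded every untreated one, which held for 17.0% of all genes tested. With ATRA the corresponding shares were 32.6% (15 of 46) and 22.8%.

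**Figure D3:**
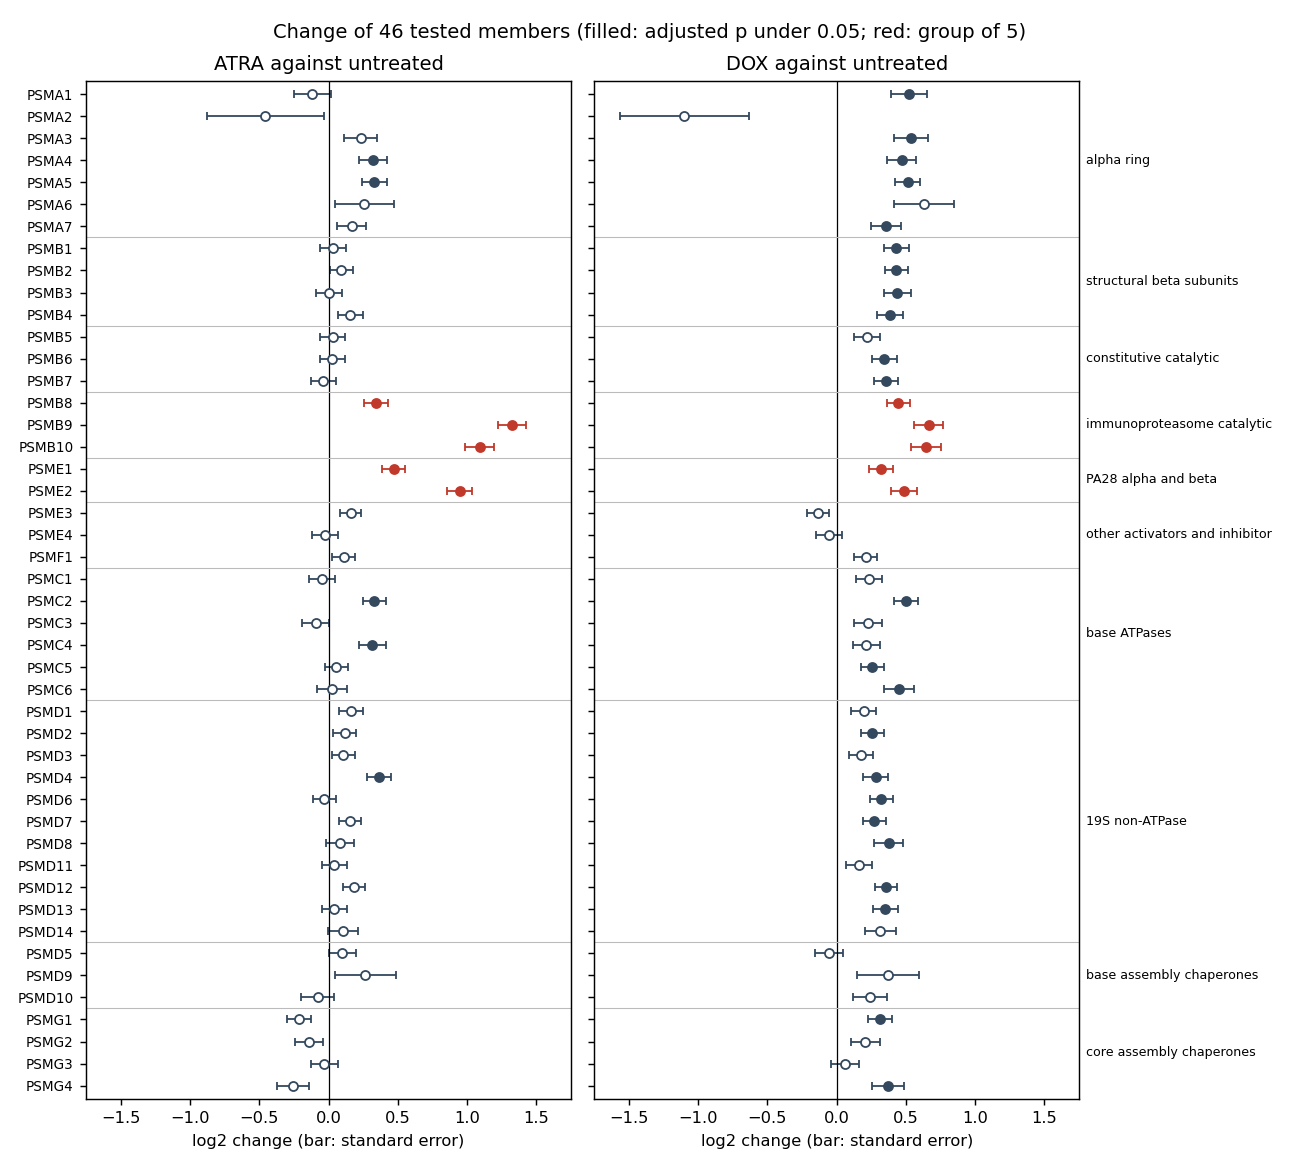
Log2 change ± SE against untreated cells for the 46 tested members, grouped by role, with ATRA at left and DOX at right; filled points have an adjusted p under 0.05 and red points are the 5 immunoproteasome genes. With ATRA the red points PSMB9, PSMB10 and PSME2 lie apart from the rest, at 0.95 to 1.33, while with DOX 28 points are filled, in the rings, the ATPases and the rest of the regulatory particle.

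The number of members called with DOX depended on single libraries and moved with the share of counts on mitochondrial ribosomal RNA. That share was 2.54%, 2.85% and 4.60% in untreated libraries, 2.09%, 2.74% and 2.64% with ATRA, 2.18%, 1.02% and 1.30% with DOX and 1.98%, 2.02% and 1.23% with both. The summed level of the 41 tested members outside the immunoproteasome group moved against it: 4179, 4095 and 3889 CPM untreated, 4479, 4508 and 4164 with ATRA, 4569.6, 5383 and 5063 with DOX, and 4694, 5082 and 5375 with both. The 3 libraries with the least mitochondrial ribosomal RNA, the second DOX, the third DOX and the third combined one, included the highest sums, and the third untreated library had the most of it and the lowest sum. With that share as a term in the edgeR model, 0 of 46 members were called higher with DOX. Every DOX library had a lower share than every untreated one, so the share and the treatment cannot be told apart in this comparison. Every combined library likewise had a lower share than every untreated and every ATRA one. The same limit thus holds for the combined group against untreated and against ATRA cells. The number called with DOX was 14 without the third untreated library and 10 without the second DOX library. It was 2, PSMB9 and PSMB10, without the third untreated and the third DOX library together. With all libraries thinned to the smallest total it was 1. The share of all genes called in either direction fell with it, from 15.2% to 4.47% without the third untreated library, 3.97% without the second DOX library, 1.04% without the third untreated and the third DOX library, 0.603% at the smallest total and 0.478% with the mitochondrial term. The members' median log2 change moved less, from 0.33 to 0.30, 0.27, 0.31 and 0.31 in the first 4 of these settings, and to 0.15 with the mitochondrial term.

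The 5 immunoproteasome genes summed to 403, 403 and 388 CPM untreated, 669, 656.5 and 593 with ATRA, 499, 570.3 and 572 with DOX and 756, 752 and 823 with both. Some untreated and ATRA libraries had like shares of mitochondrial ribosomal RNA, from 2.54% to 2.85%. They were untreated replicates 1 and 2, with sums of 403 each, and ATRA replicates 2 and 3, with 656.5 and 593. For DOX no such comparison can be made, because its shares (1.02% to 2.18%) all lay below the untreated ones (2.54% to 4.60%). With the share as a model term all 5 were called higher with ATRA, by 1.27 (PSMB9), 0.99 (PSMB10), 0.88 (PSME2), 0.42 (PSME1) and 0.29 (PSMB8). With DOX, 0 of the 5 were called higher in that model. The part of the share in the ATRA changes was not tested beyond this term.

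**Figure D4:**
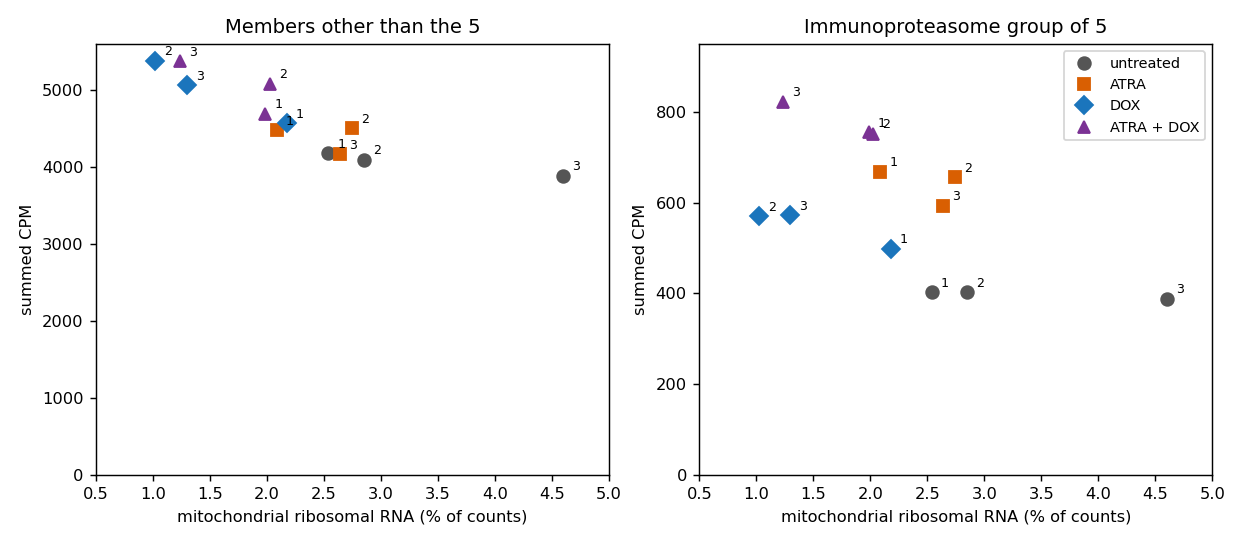
Summed level (TMM-scaled CPM, axes from 0) against the share of counts on mitochondrial ribosomal RNA in each of the 12 libraries, numbered by replicate; left, the members outside the immunoproteasome group, right, the 5 immunoproteasome genes. At left the 4 groups form one falling band, from 5383 CPM at 1.02% to 3889 at 4.60%, and at right the libraries with ATRA lie above those without it, at 593 to 823 CPM against 388 to 572.

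With both agents against untreated cells, 27 of 46 members were called higher and 0 lower in edgeR (1 lower at an unadjusted p under 0.05; DESeq2 called 25 and 0), where 19.6% of all genes were called higher and 18.5% lower. The 5 immunoproteasome genes gained 1.78 ± 0.10 (PSMB9), 1.39 ± 0.10 (PSMB10), 1.15 ± 0.09 (PSME2), 0.73 ± 0.08 (PSME1) and 0.63 ± 0.08 (PSMB8). Others reached up to 0.71 ± 0.09 in PSMA5, 0.67 ± 0.09 in PSMC2, 0.67 ± 0.21 in the exon-sharing PSMA6 and 0.60 ± 0.09 in PSMD4. PSMA5 measured 107, 103 and 96.4 CPM untreated, 133, 128 and 124 with ATRA, 128, 162 and 147 with DOX and 155, 165 and 181 with both. The count fell to 11 with the mitochondrial ribosomal RNA term and to 9 at equal depth. It was 17 without the third untreated and the third DOX library. All 5 immunoproteasome genes were called in each of these settings. The share of all genes called in either direction was 20.9%, 8.28% and 26.1% in them, against 38% in the main fit.

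Adding ATRA to DOX was called higher for 6 members, where 10.7% of all genes were called higher and 8.24% lower. They were PSMB9 (1.11 ± 0.10), PSMB10 (0.75 ± 0.10), PSME2 (0.66 ± 0.09), PSME1 (0.41 ± 0.08), PSMC4 (0.35 ± 0.10) and PSMD4 (0.32 ± 0.09), while PSMB8 did not pass (0.18 ± 0.08). PSMA1 (-0.58 ± 0.13) and PSMG4 (-0.46 ± 0.12) were called lower. PSMG4 measured 42.9, 43.5 and 53.4 CPM with DOX and 34.0, 30.8 and 34.6 with both, close to the 31.4, 33.8 and 39.8 of untreated cells. PSMA1 went from 20.9, 27.1 and 30.7 CPM with DOX to 18.5, 17.0 and 15.3 with both, against 17.4, 16.7 and 18.8 untreated. Without the first DOX library 7 members were called lower. There 23.6% of all genes were called in either direction, against 19% in the main fit.

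Adding DOX to ATRA was called higher for 4 members, PSMB9, PSMA5 (0.38 ± 0.09), PSMC2 (0.34 ± 0.08) and PSMB3 (0.34 ± 0.09), and lower for 0 in edgeR (0 lower at an unadjusted p under 0.05; DESeq2 called 7 and 0). Among all genes 1.89% were called higher and 2.54% lower. The median change was 0.21 in the 46 members and 0.00 over all genes tested. Every combined library had a lower share of mitochondrial ribosomal RNA than every ATRA one, so share and treatment cannot be told apart here either. No member was called without the third ATRA or without the third combined library. There 1.58% and 2.07% of all genes were called in either direction, against 4.43% in the main fit. The 5 comparisons between groups share their libraries, so their values stand side by side and are not independent of each other.

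The ATRA change with DOX minus the ATRA change without it was not called for any member in edgeR (0 higher and 4 lower at an unadjusted p under 0.05, smallest adjusted p = 0.39; DESeq2 called 0), where 0.0435% of all genes were called higher and 0.224% lower. In the 5 the difference was -0.35 ± 0.15 for PSMB10, -0.29 ± 0.13 for PSME2, -0.21 ± 0.14 for PSMB9, -0.16 ± 0.12 for PSMB8 and -0.06 ± 0.12 for PSME1. It was negative in 40 of the 46 members, with a median of -0.13, against -0.01 over all genes tested. These 46 values come from the same libraries and do not count as 46 observations.

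Genes that work with the proteasome were followed as lists. These lists were chosen with earlier results of these data known, so their counts are description and not independent evidence. Of 14 genes of peptide supply and interferon control, 10 were called higher with ATRA, 3 with DOX and 10 with both against untreated cells, where 15.7%, 8.08% and 19.6% of all genes tested were. TAP1, a subunit of the peptide transporter, stood at 37.7, 41.2 and 38.3 CPM untreated, 79.7, 68.5 and 72.1 with ATRA, 50.1, 56.4 and 44.2 with DOX and 78.6, 86.0 and 88.7 with both. Its changes were 0.91 ± 0.09 with ATRA and 0.39 ± 0.10 with DOX. IRF1, a transcription factor of the interferon response known to bind the ISRE, measured 33.3, 33.7 and 34.7 CPM untreated, 134, 133 and 136 with ATRA, 44.7, 49.5 and 49.9 with DOX and 144, 145 and 151 with both, in the same order of groups as PSMB9 and with no overlap. Not every gene of the list had this order: the means of IRF8 and STAT2 were higher with ATRA alone than with both. A part of IRF1 in the changes of PSMB9 was not tested. TAP2, the other transporter subunit, and NLRC5, the class I transactivator, were called in no comparison (0.10 and -0.11 with ATRA). B2M, the light chain of class I molecules, was called with ATRA (0.60) and with DOX (0.50).

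Of 21 further proteasome pathway genes, 3 were called higher and 1 lower with ATRA, 6 higher with DOX and 8 higher with both. Across all genes tested, 15.7% were called higher and 13.2% lower with ATRA. With DOX 8.08% of all genes were called higher, and with both 19.6%. The 3 higher with ATRA are a share near that of all genes. NFE2L1, the transcription factor that drives proteasome genes when the particle is inhibited, rose by 0.42 with ATRA (77.3, 82.7 and 84.7 CPM untreated, 117, 102 and 109 with ATRA) and by 0.11, not called, with DOX. POMP, the chaperone that matures the core, was called with DOX (0.55) and not with ATRA (0.12), as was SEM1, a small subunit of the regulatory particle lid (0.58 and -0.03). The second DOX library stood out in both, at 244 CPM for POMP, where the first and the third had 151 and 180.1, and at 172 CPM for SEM1, where they had 92.3 and 101.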

How the data were processed

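The values that the authors deposited are raw read counts in whole numbers. STAR, HTSeq and FastQC were their tools and GRCh38 their build, per the submitters' processing notes; versions, annotation release and strand setting are not given in the sources used here, so overlapping or antisense genes cannot be told apart. Members and lists were chosen with earlier results of these data known. Any member could be named; PSMB5 to PSMB10, PSME1 to PSME3 and the largest called changes are given in full.

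The 12 libraries were grouped from the labels. edgeR 4.0.16 (R 4.3.3) fitted 1 quasi-likelihood model of 4 group means: filterByExpr kept 16104 genes, TMM scaled libraries, and the biological coefficient of variation was 9.54%. The model was tested on simulated counts. Alternatives were DESeq2 1.42.0, library size without TMM, no filter, thinning to the smallest library total, the mitochondrial ribosomal RNA term, a replicate block, 2 groups only and libraries left out. GENCODE release 29 gave exons and lengths; RefSeq gave promoters. The labels do not say whether same-numbered libraries share a culture day. Correlations of same-numbered deviations ran from -0.24 to 0.29, which cannot decide it, and the main fit used no pairing. Of 44 PSM pseudogene identifiers, 24 had counts, PSME2P1 having 1.46% of those of PSME2. The sequence match used the letters as printed. Depth limits precision most in the third DOX library. Single values of some genes of the lists are not reported here.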

Additional observations from a re-analysis of the deposited data

How the results depend on the processing

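Depth limits these results: thinned to the smallest total (equal depth), with fewer counts by construction, ATRA was called higher for 4 members (4 of the 5 immunoproteasome genes, 0 others), DOX for 1 (0 and 1), both agents for 9 (5 and 4), ATRA added to DOX for 3 higher (0 outside the 5) and 1 lower, and DOX added to ATRA for 1 (0 and 1). With the mitochondrial ribosomal RNA term, ATRA gave 1 lower, DOX 0 higher (0 of the 5 and 0 others), both agents 11 (6 outside the 5), ATRA added to DOX 4 outside the 5, and DOX added to ATRA 1 (0 outside the 5). Without the third untreated and the third DOX library together, ATRA gave 6 (1 outside the 5), DOX 2 (2 and 0), both 17 (12 outside the 5) and ATRA added to DOX 0 outside the 5. DESeq2 called 7 (2 and 5) for DOX added to ATRA, and a fit of only the 2 groups compared called 8 (3 and 5), with 1 lower for ATRA. Shares of all genes called in either direction follow for ATRA, DOX, both, ATRA added to DOX and DOX added to ATRA. They were 28.9%, 15.2%, 38%, 19% and 4.43% in the main fit and 7.26%, 0.603%, 8.28%, 4.35% and 0.39% at equal depth. With the mitochondrial term they were 28.4%, 0.478%, 20.9%, 21.3% and 3.71%. For DOX added to ATRA, DESeq2 called 729 of the 16104 genes, which is 5.24% of those it gave an adjusted p. With only the 2 groups the share was 6.63%. The causes of these differences were not tested beyond what each alternative changes.

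Leaving out 1 library at a time, members called higher ran from 6 to 10 with ATRA (1 to 5 outside the 5), 10 to 34 with DOX (4 to 5 of the 5, 6 to 29 outside), 18 to 28 with both (13 to 23 outside the 5; 0 to 1 lower), 4 to 7 for ATRA added to DOX (0 to 3 outside the 5; 2 to 7 lower) and 0 to 7 for DOX added to ATRA (0 to 2 of the 5, 0 to 6 outside); the interaction gave 0 to 2 lower, both without the first DOX library. Over the same left-out libraries, the share of all genes called in either direction ran from 20.8% to 24% with ATRA and from 3.97% to 26.1% with DOX. It ran from 26.9% to 36% with both, 13.2% to 23.6% for ATRA added to DOX and 1.58% to 5.47% for DOX added to ATRA. For the interaction it ran from 0.0599% to 4.51%. The DOX effect on the PSMB10 to PSMB7 ratio ran from 0.11 to 0.20, passing without the third ATRA library. The other 5 ratio effects passed each time. Changes that were not called crossed 0 in places: with ATRA, PSMB6 was -0.14 at equal depth and -0.017 with the mitochondrial term, PSMB5 was -0.056 with that term and ran from -0.012 to 0.11 over the left-out libraries, and PSMB7 ran from -0.092 to 0.028. With the mitochondrial term, DOX gave -0.035 for PSMB5 and -0.0073 for PSMD8, and the interaction of PSME1 was 0.030; over the left-out libraries the latter ran from -0.13 to 0.019.

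With the replicate number as a block, members called higher were 10 with ATRA, 28 with DOX, 28 with both, and 6 and 4 for the added agents. For ATRA added to DOX 2 were called lower. The share of all genes called in either direction with the block was 29% with ATRA, 14.6% with DOX and 37.8% with both. It was 19% for ATRA added to DOX and 4.53% for DOX added to ATRA. The values of the ratio shifts with ATRA (1.23, 0.99 and 0.31) are the same with the block by construction. What the block could change is the test, and all 3 shifts still passed when labels were exchanged within same-numbered pairs. The block changed no count by more than 1 member. Of 15 same-numbered correlations, 4 were above 0.1, which does not settle whether the replicate numbers pair the libraries.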
